A study of Mus musculus with 24 samples.

Results

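The transcripts described here are 8 genes of the hypoxia response and of glycolysis: *Hif1a*, *Vegfa*, *Slc2a1*, *Pgk1*, *Ldha*, *Pdk1*, *Bnip3* and *Egln3*. They were picked by symbol as known genes of these pathways, with earlier results of these data known, and are 8 of the 16730 genes in the deposited table. Each of the 8 passed the filter on low values. Messenger RNA of whole epididymal fat pads (eWAT, labelled gWAT) was measured in 24 male mice, 1 QuantSeq library per mouse, to find what diet and loss of laminin α4 change in this depot. The labels name the groups rdWT, rdKO, hfdWT and hfdKO, with 6 mice in each. Mice labelled wild type (floxed) carried *Lama4* alleles with loxP sites around exon 3 and are called *Lama4* fl/fl. Mice labelled LAMA4 knockout carried the same alleles with a Cre transgene under the adiponectin promoter, which acts in adipocytes, and are called *Lama4* AKO. All 24 animals bear the strain label LFKO and were kept on a C57BL/6J background. They ate a regular diet (chow) or a diet with 45% fat (HFD), for 20 weeks by the study's methods. The methods put their age at collection between 24 and 26 weeks. The study's figure legends give chow from weaning to an age of 24 weeks, and HFD from an age of 6 to 26 weeks. If the legends hold for the sequenced mice, age and start of feeding went with diet. The diet comparisons below cannot then separate diet from age or feeding schedule, and the part of these was not tested. The study's methods call the mice of both genotypes littermates, and which of them shared a litter is not given in the sources used here. The deletion is limited to adipocytes, while the RNA came from every cell of the pad.

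Cells that lack oxygen stop degrading hypoxia-inducible factor (HIF), which then binds short DNA motifs and raises genes for vessel growth, glucose uptake, glycolysis and removal of mitochondria. With oxygen present, prolyl hydroxylases of the Egln family mark HIF for destruction through the Vhl protein. Obese fat is often studied for this response, because large adipocytes lie far from capillaries, and immune cells that enter it use glycolysis too.

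Library totals lay between 5579590 and 18764516 counts. Values are CPM, the reads of a gene scaled to a common library size with TMM factors. QuantSeq gives about 1 read per transcript near its 3′ end, so CPM counts transcripts and is not divided by gene length. The tissue label was checked against 8 adipocyte markers (such as *Adipoq* and *Plin1*), which were all measured and summed to between 8450 and 45700 CPM in every library, whereas 0 of 6 epididymal epithelium markers passed the filter. *Lama4* itself had a median of 91.7 CPM in chow-fed *Lama4* fl/fl, 113 CPM in chow-fed *Lama4* AKO, 78.7 CPM in HFD-fed *Lama4* fl/fl and 44.3 CPM in HFD-fed *Lama4* AKO libraries. Its genotype difference was 0.11 (log2, adjusted p = 0.98, edgeR) on chow and −0.69 (adjusted p = 0.347, edgeR) on HFD. A 3′ read lies outside the deleted exon, so these values do not check the labels. The study reports lower *Lama4* by quantitative PCR in eWAT of chow-fed *Lama4* AKO mice. The chow values here showed no such fall, and the reason was not tested. The study set outlying mice aside after a principal component plot. Its main text does not name them, and that plot was not analysed here. A choice of 5 such libraries was inferred in earlier work on these data: replicates 3, 4 and 6 of HFD-fed *Lama4* fl/fl, replicate 3 of chow-fed *Lama4* fl/fl and replicate 5 of chow-fed *Lama4* AKO. Differential expression of the 8 genes and of the pathway lists is given for all 24 mice first. The other 19 follow for the 8 genes, for the pathway genes as a whole, and by list where stated. Markers, covariation and shares are given for all 24. Because mice were set aside by their expression, the second set is not independent evidence.

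The core of the HIF-binding motif was looked up in the RefSeq promoter windows of these genes (GRCm38.p6, 250 bases before to 50 after each start), to show what the members share in sequence. The letters searched were ACGTG and GCGTG on both strands, with overlapping matches counted separately, so that the palindrome CACGTG gives a match on each strand. At least 1 match was found in 43.8% of all 32851 windows and at least 2 in 20.6%. All 8 genes had a match, in 9 of their 11 windows. *Ldha* held 7 matches in the window of its first listed start and *Bnip3* held 5. The first listed *Vegfa* window and the second *Pdk1* window held none. The stretches below are from genes whose levels went in opposite directions (*Slc2a1* and *Pdk1* against *Vegfa* and *Bnip3*) and from the lactate dehydrogenase and phosphoglycerate kinase genes. Each is written 5′ to 3′ on the gene's strand, with the matches in capitals. A match describes letters and is not a measured binding site.

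Slc2a1 (chr4:119108697-119108725, + strand): gtcccgccccggACGTGctccccaggccc
Pdk1 (chr2:71873134-71873162, + strand): ccgcctacatggGCGTGtctttaaccagg
Vegfa, second start (chr17:46025361-46025390, − strand): ccctggagtGCGTGccCACGTcagagagca
Bnip3 (chr7:138909598-138909626, − strand): gcgCACGCgccgCACGTGccaCACGCtcc
Ldha (chr7:46845751-46845779, + strand): gcctaCACGTGggttcccgCACGTccgct
Pgk1 (chrX:106186947-106186976, + strand): aggACGTGacaaatggaagtagCACGTctc

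The hypoxia and glycolysis genes did not move as a group. In *Lama4* AKO mice, HFD went with more *Slc2a1* (glucose transporter GLUT1) and *Pdk1* (a kinase that inhibits pyruvate dehydrogenase in mitochondria), and with less *Vegfa* (the main angiogenic ligand) and *Hif1a* (the oxygen-regulated HIF subunit). These 4 of 8 genes passed an adjusted p of 0.05 in edgeR's quasi-likelihood test, where 22.1% of the 15020 genes tested did. The 2 that rose compare with 9.13% of all genes, and the 2 that fell with 12.9%. "Rose" and "fell" are used here for an adjusted p of at most 0.05. The median log2 change over the 8 was −0.11, against 0.00 over all genes. By the study's stricter criteria (1.5-fold change or more, nominal p no higher than 0.001, and 2 CPM or more as the mean of the higher group), edgeR called 0 of 8 here and 4.12% of all genes. At an unadjusted p under 0.05 edgeR gave 5 of 8, and 5976 of all 15020 genes. On the study's criteria DESeq2 called 3 of the 8 and limma-voom 2. Counts from these tools and from fits without 1 mouse are given without the share of all genes in the same fit. They show how the count moved and not an excess among the 8.

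In *Lama4* fl/fl mice the diet comparison called 0 of 8 by the study's criteria in edgeR, DESeq2 and limma-voom, against a background of 0.173%. At an adjusted p of 0.05, edgeR gave 0 of 8 and 0% of all genes. At an unadjusted p under 0.05 it gave 1 of 8, *Ldha*, and 1354 of all 15020 genes. The *Lama4* AKO value rested on single mice. Without replicate 3 of chow-fed *Lama4* AKO the count of 4 became 0. It also became 0 without HFD-fed *Lama4* AKO replicate 4 or 5, and 1 without chow-fed *Lama4* AKO replicate 1. Without chow-fed *Lama4* AKO replicate 5 the study's criteria called 4 of 8, and 2 without replicate 6. They called 1 of 8 without chow-fed *Lama4* fl/fl replicate 1, HFD-fed *Lama4* fl/fl replicate 4 or HFD-fed *Lama4* AKO replicate 6.

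**Figure D1:**
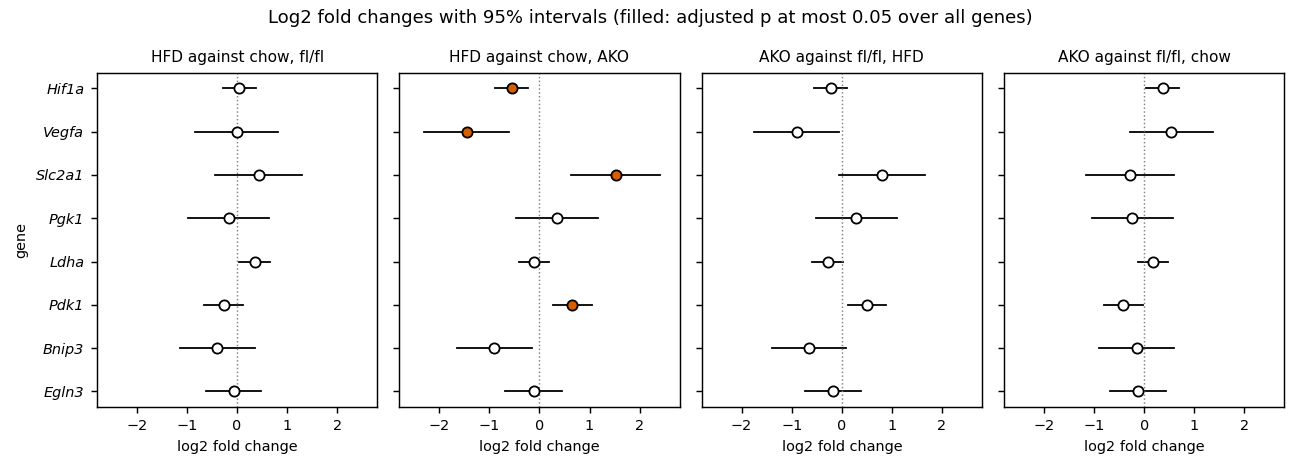
Log2 fold changes (x axis) of the 8 genes (y axis) in the 4 comparisons of diet or genotype, with 95% intervals from edgeR and filled points for an adjusted p of at most 0.05. Filled points occur in HFD against chow in *Lama4* AKO mice: *Slc2a1* at 1.52, *Pdk1* at 0.65, *Vegfa* at −1.45 and *Hif1a* at −0.55.

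*Hif1a* (ENSMUSG00000021109, GRCm38 chr12:73901375-73947530, + strand) encodes the HIF subunit whose protein, rather than its messenger RNA, is mainly set by oxygen. Its CPM (lowest, median, highest) was 58.0, 83.1 and 94.7 in chow-fed *Lama4* fl/fl libraries. Chow-fed *Lama4* AKO libraries held 70.5, 103 and 134 CPM. HFD-fed *Lama4* fl/fl libraries held 59.5, 81.5 and 106 CPM. With HFD in *Lama4* AKO the values narrowed to 64.5, 70.9 and 78.7 CPM. All 6 of the latter lay below the chow-fed *Lama4* AKO median, although the ranges overlapped. In *Lama4* AKO mice *Hif1a* fell by 0.55 on the log2 scale (SE 0.16, adjusted p = 0.0252, edgeR), while the difference in *Lama4* fl/fl mice was 0.04 (SE 0.16, adjusted p = 0.952). The SD of log2 CPM was 0.10 in HFD-fed and 0.40 in chow-fed *Lama4* AKO libraries, where replicates 3 and 4 held 132 and 134 CPM and replicates 5 and 6 held 70.5 and 76.6 CPM.

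*Egln3* (ENSMUSG00000035105, chr12:54178981-54203860, − strand) encodes a prolyl hydroxylase that HIF itself raises, a feedback brake. It was the lowest of the 8 genes, with 10 to 48 counts a library. Over the 24 libraries it ranged from 1.05 to 3.34 CPM with a median of 2.24. The group medians lay between 2.06 and 2.41 CPM and all groups overlapped. Its log2 differences between diets were −0.07 (95% interval −0.63 to 0.48) in *Lama4* fl/fl and −0.11 (−0.68 to 0.45) in *Lama4* AKO mice.

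*Vegfa* (ENSMUSG00000023951, chr17:46016993-46032369, − strand) is the ligand that draws new vessels into growing fat. Chow-fed *Lama4* fl/fl libraries held 29.8, 39.0 and 93.6 CPM. Chow-fed *Lama4* AKO libraries held 30.2, 55.8 and 111 CPM. Replicates 1 and 3 of that group shared the highest value, and 93.6 CPM in the control group came from replicate 1 alone, whose nearest neighbour held 44.9 CPM. With HFD the *Lama4* fl/fl libraries held 16.7, 41.6 and 93.8 CPM, the widest spread of the 4 groups (SD 65.2% of the mean). HFD-fed *Lama4* AKO libraries held 15.9, 21.4 and 39.4 CPM. None of these 6 reached the chow-fed *Lama4* AKO median, and the ranges overlapped. *Vegfa* fell by 1.45 (log2, SE 0.413, adjusted p = 0.0238, edgeR) with HFD in *Lama4* AKO mice. The *Lama4* fl/fl mice gave −0.01, with a 95% interval of −0.85 to 0.82. In whole tissue, fewer cells of a type and less RNA per cell cannot be told apart for this or any gene below.

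*Slc2a1* (ENSMUSG00000028645, chr4:119108711-119137983, + strand) encodes GLUT1, the glucose transporter of most cells other than insulin-responsive fat and muscle. It varied most of the 8, by 10.5 times from 6.31 to 66.4 CPM. Chow-fed libraries held 7.32, 15.0 and 30.1 CPM in *Lama4* fl/fl. In *Lama4* AKO they held 6.31, 10.8 and 30.1 CPM. With HFD the *Lama4* fl/fl libraries held 9.08, 19.9 and 44.1 CPM. The HFD-fed *Lama4* AKO libraries held 21.0, 40.7 and 66.4 CPM, and all 6 exceeded the medians of the other groups. Their range still overlapped with chow-fed *Lama4* AKO, through replicate 5 of the latter at 30.1 CPM. *Slc2a1* rose by 1.52 (log2, SE 0.431, 2.86-fold, adjusted p = 0.0239, edgeR) with HFD in *Lama4* AKO and differed by 0.43 (SE 0.421, adjusted p = 0.776) in *Lama4* fl/fl mice. Averaged over both genotypes it rose by 0.97 (SE 0.301, adjusted p = 0.0404, edgeR), the single member of 8 to do so, against 12.4% of all genes. That call was lost in 15 of 24 fits that left out 1 mouse. The 9 mice without which it held were chow-fed *Lama4* fl/fl replicates 2 and 3, chow-fed *Lama4* AKO replicates 5 and 6, HFD-fed *Lama4* fl/fl replicates 3, 4 and 6, and HFD-fed *Lama4* AKO replicates 3 and 6. Without chow-fed *Lama4* AKO replicate 5, HFD-fed *Lama4* fl/fl replicate 4 or HFD-fed *Lama4* AKO replicate 6, 3 of 8 genes passed. In this averaged comparison the study's criteria called 0 of 8 and 2.22% of all genes in edgeR, 1 of 8 in DESeq2 and 0 in limma-voom. At an unadjusted p under 0.05 edgeR gave 4 of 8, and 5338 of all 15020 genes. Without chow-fed *Lama4* AKO replicate 5 the study's criteria called 1.

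*Pgk1* (ENSMUSG00000062070, chrX:106187100-106203699, + strand) encodes phosphoglycerate kinase, an enzyme of lower glycolysis. It was measured at only 10 to 89 counts a library, or 0.737 to 5.13 CPM (median 2.89), a level at percentile 21.7 of all genes tested. The group medians were 2.64 and 2.51 CPM on chow and 2.95 and 3.58 CPM on HFD, in *Lama4* fl/fl and *Lama4* AKO. All ranges overlapped, and the diet difference in *Lama4* AKO was 0.35 (log2, 95% interval −0.46 to 1.17). Copies of the gene could divert reads, so the last 400 bases of each member's longest coding transcript were searched in the transcripts of other genes: 0 of 351 words of 50 bases recurred there for any of the 8 genes. Copies in the genome outside annotated transcripts were not searched.

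*Ldha* (ENSMUSG00000063229, chr7:46841475-46855627, + strand) encodes the lactate dehydrogenase subunit that makes lactate from pyruvate, and was the highest of the 8 genes at a median of 329 CPM. Chow-fed *Lama4* fl/fl libraries held 290, 321 and 384 CPM. Chow-fed *Lama4* AKO libraries held 301, 375 and 426 CPM. HFD-fed *Lama4* fl/fl libraries held 269, 440 and 532 CPM, of which 4 of 6 exceeded the chow-fed control median. HFD-fed *Lama4* AKO libraries held 310, 329 and 416 CPM. *Ldha* varied least over the 24 mice (1.98 times). Its difference between diets was 0.35 in *Lama4* fl/fl (log2, SE 0.149, adjusted p = 0.516, edgeR) and −0.11 (adjusted p = 0.614) in *Lama4* AKO mice, and neither passed the adjusted threshold.

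*Pdk1* (ENSMUSG00000006494, chr2:71873224-71903858, + strand) encodes pyruvate dehydrogenase kinase 1. Chow-fed *Lama4* fl/fl libraries held 17.8, 22.3 and 25.1 CPM. Chow-fed *Lama4* AKO libraries held 9.20, 16.2 and 23.4 CPM. HFD-fed *Lama4* fl/fl libraries held 13.1, 18.5 and 23.8 CPM. HFD-fed *Lama4* AKO libraries held 20.7, 26.3 and 28.8 CPM, all above the chow-fed *Lama4* AKO median and, but for replicate 6 at 20.7 CPM, all above its highest library. *Pdk1* rose by 0.65 with HFD in *Lama4* AKO (log2, SE 0.187, 1.57-fold, adjusted p = 0.0242, edgeR) and was −0.27 (SE 0.186, adjusted p = 0.675) in *Lama4* fl/fl mice. Of the 8 genes it had the lowest p for a diet effect that differed between genotypes (0.93, SE 0.264), which did not pass over all genes (adjusted p = 0.229, edgeR).

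*Bnip3* (ENSMUSG00000078566, chr7:138890836-138909519, − strand) encodes a mitochondrial receptor that marks mitochondria for removal by autophagy. Chow-fed *Lama4* fl/fl libraries held 149, 206 and 455 CPM, the highest in replicate 1, the mouse with the highest *Vegfa* of that group. Chow-fed *Lama4* AKO libraries held 106, 227 and 328 CPM. HFD-fed *Lama4* fl/fl libraries held 85.3, 129 and 396 CPM. HFD-fed *Lama4* AKO libraries held 79.6, 105 and 174 CPM, all below the chow-fed *Lama4* AKO median with overlapping ranges. The diet difference was −0.90 (log2, SE 0.363, adjusted p = 0.0715, edgeR) in *Lama4* AKO and −0.40 (SE 0.36, adjusted p = 0.757) in *Lama4* fl/fl mice.

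**Figure D2:**
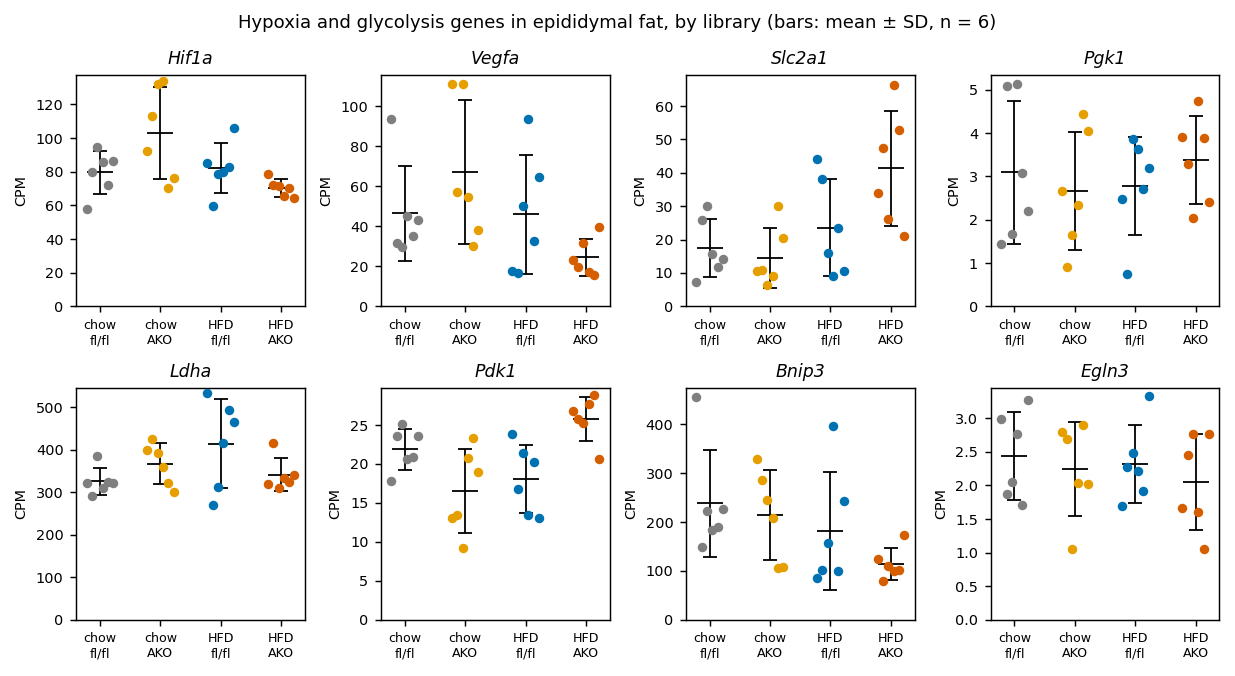
CPM (y axis, from 0) of each gene in the 4 groups (x axis), 1 point per library, with the mean and SD of 6 mice as bars. HFD-fed *Lama4* AKO libraries sit highest for *Slc2a1* (median 40.7 CPM) and *Pdk1* (26.3 CPM) and lowest for *Vegfa* (21.4 CPM) and *Bnip3* (105 CPM).

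Genotype alone was not tied to a call. On HFD, edgeR called 0 of 8 genes between *Lama4* AKO and *Lama4* fl/fl mice, with 0.173% of all genes called, and 0 of 8 passed an adjusted p of 0.05, where 0% of all genes did. At an unadjusted p under 0.05 there were 2227 of all 15020 genes and 2 of 8: *Pdk1* (0.51, adjusted p = 0.293) and *Vegfa* (−0.90, adjusted p = 0.316). On chow the call count was again 0 of 8 (background 0.113%), with 0 of 8 and 0% of all genes at an adjusted p of 0.05. *Hif1a* (0.37, adjusted p = 0.824) and *Pdk1* (−0.42, adjusted p = 0.831) were the 2 of 8 under an unadjusted 0.05, as were 878 of all 15020 genes. DESeq2 and limma-voom also called 0 of 8 for genotype on either diet.

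The interaction asks whether the diet effect differed between genotypes. EdgeR called 0 of 8 (background 0.386%) and placed 0 of 8 under an adjusted p of 0.05 (background 0.00666%). At an unadjusted p under 0.05 there were 2336 of all 15020 genes and 4 of 8: *Pdk1*, *Hif1a* (−0.59, adjusted p = 0.261), *Vegfa* (−1.44, adjusted p = 0.271) and *Ldha* (−0.46, adjusted p = 0.307). DESeq2 and limma-voom each called 1 of 8, and edgeR called 1 without chow-fed *Lama4* AKO replicate 5 or HFD-fed *Lama4* fl/fl replicate 1. A diet effect particular to *Lama4* AKO mice was therefore not shown for any of the 8 genes, although 4 of them passed in that genotype and none in the other.

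In the 19 libraries 3 of the 8 genes passed an adjusted p of 0.05 for diet in *Lama4* fl/fl mice, each with the sign it had in all 24. *Slc2a1* was 1.23 higher (log2, adjusted p = 0.0257), *Vegfa* 1.15 lower on the same scale (−1.15, adjusted p = 0.0461) and *Bnip3* lower (−1.34, adjusted p = 0.0102, all edgeR). The background is 29% of all genes. At an unadjusted p under 0.05 edgeR gave 4 of 8. The share of all genes at that level is not given here, so this count does not show an excess among the 8. The study's criteria called 0 of 8 against 11.8%, and 0 of 8 in limma-voom. Leaving out each of the 19 in turn gave 0 or 1, with 1 called without chow-fed *Lama4* fl/fl replicate 2, chow-fed *Lama4* AKO replicate 6 or HFD-fed *Lama4* fl/fl replicate 2. *Pdk1* (−0.07, adjusted p = 0.809), *Pgk1* (−0.79, adjusted p = 0.231) and *Ldha* (0.46, adjusted p = 0.0606) had the sign opposite to their *Lama4* AKO values of 0.77, 0.53 and −0.14, differences that did not pass the interaction test (adjusted p = 0.196, 0.41 and 0.296, edgeR). The 3 HFD-fed *Lama4* fl/fl libraries kept had 16.7, 17.5 and 32.8 CPM of *Vegfa*, while the 3 left out had 50.3, 64.4 and 93.8 CPM. For *Slc2a1* those kept had 23.6, 38.1 and 44.1 CPM and those left out 9.08, 10.5 and 16.1 CPM. The choice of libraries thus split this group without overlap in both genes.

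The *Lama4* AKO comparison in these 19 libraries called 4 of 8 by the study's criteria, against 15.7% of all genes: *Slc2a1* (1.84, adjusted p = 0.000798), *Pdk1* (0.77, adjusted p = 0.00227), *Vegfa* (−1.60, adjusted p = 0.00148) and *Hif1a* (−0.64, adjusted p = 0.00298). Leaving out each of the 19 in turn gave 2 to 5 called genes, with 2 left without chow-fed *Lama4* AKO replicate 2. Averaged over genotypes, 3 of 8 were called against 21.2%: *Slc2a1* (1.53), *Vegfa* (−1.38) and *Bnip3* (−1.19). The genotype difference on HFD changed sign for 3 genes, none past the threshold in either set: *Vegfa* went from −0.90 to 0.14, *Bnip3* from −0.66 to 0.27 and *Egln3* from −0.17 to 0.08.

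Mice of the same group differed from each other along the same split. After removal of group means from log2 CPM, *Vegfa* and *Slc2a1* were inversely related over the 24 libraries (Pearson's r = −0.92, permutation p = 1e-05, the smallest that 100000 permutations within groups can give, adjusted p = 0.00014 over 28 pairs; Spearman's rho = −0.90, permutation p = 1e-05, adjusted p = 0.00028). Without the 2 libraries farthest from the median, r was −0.89. Within the 4 groups it was −0.85, −0.85, −0.99 and −0.96. *Vegfa* rose and fell with *Bnip3* (r = 0.88, rho = 0.84, permutation p = 1e-05 and 4e-05, adjusted p = 0.00014 and 0.000373, r = 0.83 without 2 libraries). *Slc2a1* went with *Pdk1* (r = 0.73, rho = 0.67, permutation p = 0.00028 and 0.00236, adjusted p = 0.00196 and 0.0133, r = 0.64 without 2 libraries). The remaining pairs of these 4 genes were negative: *Slc2a1* with *Bnip3* at −0.83 (rho −0.82), *Vegfa* with *Pdk1* at −0.74 (rho −0.70) and *Pdk1* with *Bnip3* at −0.71 (rho −0.66), with adjusted permutation p of 0.00028, 0.00246 and 0.00462 for r and of 0.000373, 0.0133 and 0.027 for rho, and r of −0.78, −0.70 and −0.74 without 2 libraries. So 6 of 28 pairs passed, 2 positive and 4 negative, and all 6 join the same 4 genes.

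Pooled over the 24 libraries, *Hif1a* passed with none of these 4 genes (r between −0.32 and 0.24). The pooled r mixes opposite signs, since each of the 4 relations changed sign between the chow-fed groups. In chow-fed *Lama4* fl/fl r was −0.80 with *Vegfa*, 0.83 with *Slc2a1*, 0.87 with *Pdk1* and −0.68 with *Bnip3*. In chow-fed *Lama4* AKO these were 0.61, −0.93, −0.55 and 0.69. The highest pooled value of *Hif1a* was with *Ldha* (r = 0.52, rho = 0.44, permutation p = 0.0131 and 0.0464, adjusted p = 0.0523 and 0.185), which fell to 0.36 without 2 libraries. *Pgk1* and *Egln3* passed with no other member.

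**Figure D3:**
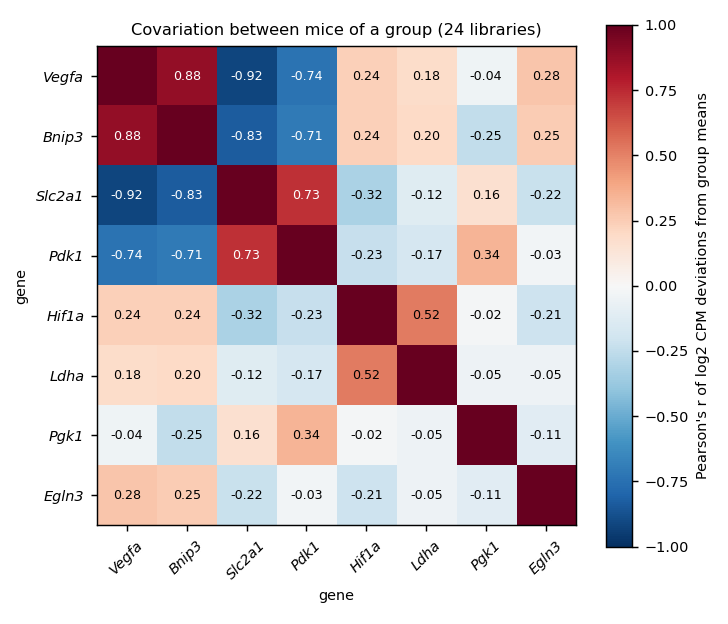
Pearson's r between the 8 genes (both axes) of log2 CPM deviations from group means over 24 libraries, on a colour scale from −1 (blue) to 1 (red). *Vegfa* and *Bnip3* (0.88) form a block that is inverse to *Slc2a1* and *Pdk1* (0.73). In these pooled values *Hif1a*, *Ldha*, *Pgk1* and *Egln3* stand outside it.

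Marker genes of cell types moved along the same axis. The summed adipocyte markers (8 of 8 measured) were 14700, 28900 and 38000 CPM (lowest, median, highest) in chow-fed and 8450, 10000 and 23600 CPM in HFD-fed *Lama4* AKO libraries. In *Lama4* fl/fl they were 18300, 31000 and 45700 CPM on chow and 8760, 18600 and 45200 CPM on HFD. The summed macrophage markers (8 of 8 measured, among them *Cd68* and *Itgax*) went the other way, with 2000, 3620 and 7810 CPM on chow and 6350, 8760 and 12100 CPM on HFD in *Lama4* AKO. The *Lama4* fl/fl libraries held 1360, 6890 and 9850 CPM on chow and 2020, 6120 and 11500 CPM on HFD. Each sum adds CPM without scaling the genes, so its most abundant marker weighs most. In chow-fed *Lama4* fl/fl libraries *Fabp4* had a mean of 22600 CPM, beside the adipocyte median of 31000 CPM. *Lyz2* had a mean of 3980 CPM there, beside the macrophage median of 6890 CPM. In the *Lama4* AKO diet comparison 4 of 8 adipocyte markers fell and 2 of 8 macrophage markers rose, with median log2 changes of −1.12 and 1.17. Of the endothelial markers 3 of 8 fell (median −0.60). Over all genes 12.9% fell and 9.13% rose in this comparison. The macrophage markers that rose were *Cd68* and *Itgax*, while others such as *Csf1r* (0.37, adjusted p = 0.369) and *Mrc1* (0.01, adjusted p = 0.97, edgeR) did not pass. Among other cells, 1 of 7 fibroblast and progenitor markers rose, 2 of 5 mesothelial markers fell, and none of 5 erythroid, 2 measured muscle or 6 B and T cell markers passed (edgeR, with 0, 1 and 0 at an unadjusted p under 0.05).

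Within groups, *Vegfa* followed the adipocyte sum (r = 0.92, rho = 0.91, adjusted permutation p = 3e-05 and 3.43e-05 over 24 relations, r = 0.89 without 2 libraries) and opposed the macrophage sum (r = −0.94, rho = −0.93, the same adjusted p, r = −0.94 without 2 libraries). *Bnip3* did likewise (r = 0.89 and −0.88). *Slc2a1* was inverse to the adipocyte sum (r = −0.90, rho = −0.89, adjusted permutation p = 3e-05 and 3.43e-05) and followed the macrophage sum (r = 0.87, rho = 0.90). For *Pdk1* r was −0.76 with adipocyte and 0.73 with macrophage markers. The endothelial sum gave r = 0.89 with *Vegfa*, 0.86 with *Bnip3*, −0.92 with *Slc2a1* and −0.68 with *Pdk1*. The adjusted permutation p was 0.00268 for *Pdk1* and 3e-05 for each of the others. The axis was thus not limited to adipocyte and macrophage markers. Pooled over the 24 libraries, *Hif1a*, *Pgk1*, *Ldha* and *Egln3* had r between −0.25 and 0.33 with all these sums, none of which passed. Single groups held larger values of both signs. With the adipocyte sum, *Hif1a* was at −0.85 in chow-fed *Lama4* fl/fl and 0.67 in chow-fed *Lama4* AKO, and *Ldha* at −0.48 and 0.96. *Pgk1* was at −0.79 in chow-fed *Lama4* AKO and 0.63 in HFD-fed *Lama4* fl/fl. Without 2 libraries r of *Hif1a* with the macrophage sum went from −0.18 to −0.57. The part of cell makeup in the changes of *Vegfa*, *Bnip3*, *Slc2a1* and *Pdk1* was not tested.

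**Figure D4:**
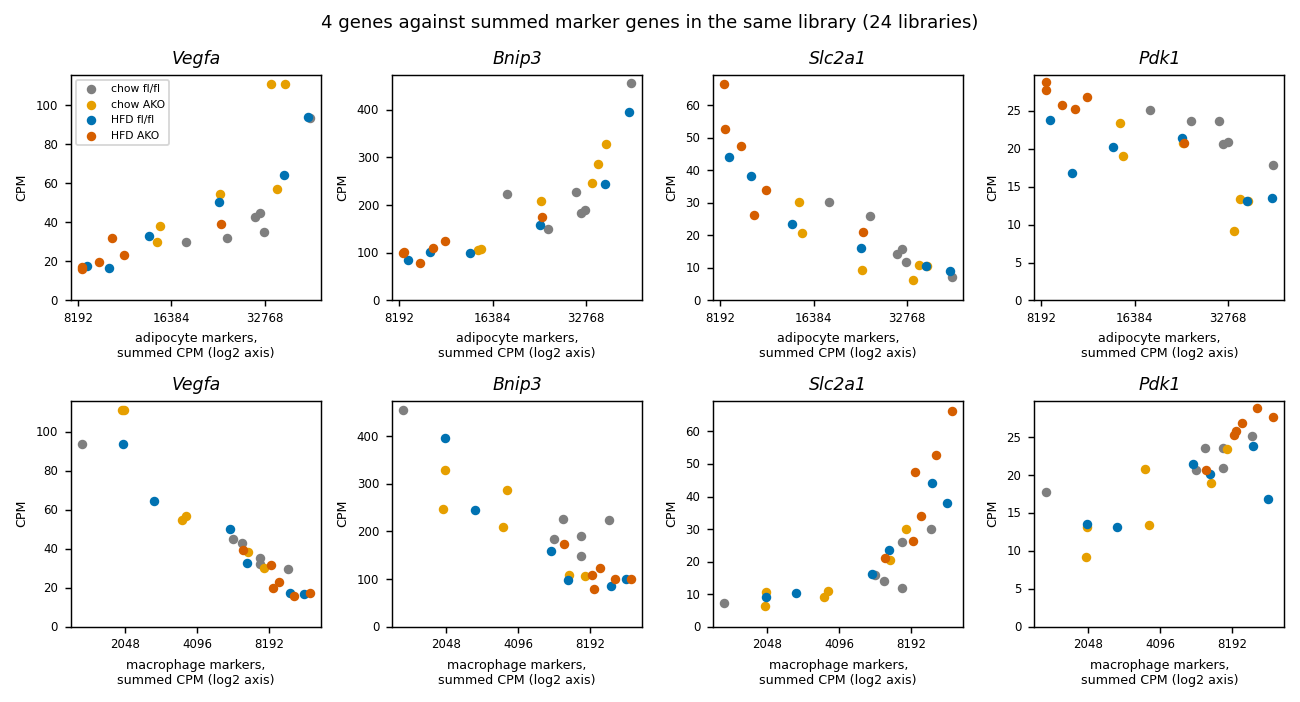
CPM of *Vegfa*, *Bnip3*, *Slc2a1* and *Pdk1* (y axes, from 0) against the summed CPM of 8 adipocyte (top) or 8 macrophage markers (bottom, x axes on a log2 scale), 1 point per library, coloured by group. The groups overlap along each course. *Vegfa* is 111 CPM at macrophage sums of 2000 and 2030 CPM and 17.3 CPM at the highest sum, 12100 CPM.

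The genes most like each member in the same within-group measure (24 libraries) are given as likeness only, with no test. *Bnip3* was nearest to *Adipoq* (r = 0.97), the adiponectin gene, then *Echs1* and *Rhoq* (both 0.96). *Vegfa* was nearest to *G0s2*, an inhibitor of fat breakdown, *Ptprg* and *Ebf3* (each 0.96). *Slc2a1* was nearest to *Srxn1*, an antioxidant gene, and *Serpinb9b* (both 0.97) and *Panx1* (0.96). *Pdk1* went with *St6gal1* (0.90), ENSMUSG00000087477 and *Tns3* (both 0.89). These 4 members shared their course with much of the transcriptome: r exceeded 0.7 for 12.2% of all genes with *Vegfa*, 12.1% with *Slc2a1*, 11.7% with *Bnip3* and 6.58% with *Pdk1*. For *Hif1a*, *Ldha* and *Egln3* that share was 0.333%, 0.972% and 0.0133%. *Ldha* was nearest to *Mdh1* (0.89), the cytosolic malate dehydrogenase, *Ndufs3* (0.86), a subunit of respiratory complex I, and *Tvp23b* (0.85). *Hif1a* was nearest to *Tmem38b* (0.88), *Sec22b* (0.86) and *Il20rb* (0.84). *Pgk1* was nearest to *Wdr11*, *Emc4* and *Snx3* (each 0.90), with 1.22% of genes above 0.7, and *Egln3* to *Zfp995* (0.72), *Rhou* (0.71) and *Armc5* (0.67).

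The wider pathway lists also held genes of both directions, at shares close to those of all genes. Of 89 further genes tested in the *Lama4* AKO diet comparison, 11 (12.4%) rose and 12 (13.5%) fell (edgeR, adjusted p of at most 0.05), against 9.13% and 12.9% of all genes, with a median log2 change of −0.05. These backgrounds hold for each list below where *Lama4* AKO counts come from all 24 mice. In the 19 libraries 21 of the 89 rose and 20 fell in this comparison (46.1%), against 2810 and 3175 of all 14863 genes. The study's criteria then called 14 (15.7%), against 15.7% of all genes. Among glycolytic enzymes, 4 of 19 rose and 3 fell. *Hk1*, the hexokinase of most cells, rose by 0.88 (adjusted p = 0.0294) while *Hk2*, the insulin-regulated hexokinase, fell by 1.33 (adjusted p = 0.0252). *Gapdh* rose by 0.77 (adjusted p = 0.021). *Pkm*, the pyruvate kinase, rose by 1.02 (adjusted p = 0.0414). In the 19 libraries 7 of the 19 enzymes rose and 4 fell in *Lama4* AKO mice, and 26.3% were called, against 15.7% of all genes. For diet averaged over genotypes 42.1% were called, against 21.2%. Among *Lama4* fl/fl mice 0 of 19 passed in edgeR, with 3 at an unadjusted p under 0.05 (1354 of all 15020 genes), led by *Pfkp* (0.44, adjusted p = 0.448) and *Pgam1* (0.78, adjusted p = 0.506). In the 19 libraries 4 of 19 rose and 1 fell in that genotype, where 29% of all genes passed in either direction. The study's criteria called 3 (15.8%, against 11.8% of all genes): *Hk1* (1.07, adjusted p = 0.00122), *Pfkp* (0.83, adjusted p = 0.000418) and *Pgam1* (1.67, adjusted p = 0.00037).

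HIF factors and oxygen sensors gave 2 higher and 2 lower of 12 tested in *Lama4* AKO mice, *Hif1a* among the latter. *Egln2*, a sister hydroxylase of *Egln3*, rose by 0.42 (adjusted p = 0.0258) and *Arnt2*, a HIF partner subunit, by 1.29 (adjusted p = 0.0312) from a low level. *Epas1*, which encodes HIF-2α, held group medians between 121 and 154 CPM, above *Hif1a* in each group, and differed by 0.08 (adjusted p = 0.716) between diets in *Lama4* AKO mice. *Egln1*, the main oxygen sensor, differed by −0.05 (adjusted p = 0.829). Of 27 other HIF target genes, 4 rose and 3 fell: *Pfkfb4*, a regulator of glycolytic flux, rose by 0.87 (adjusted p = 0.0249), and *Stc2*, a secreted glycoprotein, fell by 1.74 (adjusted p = 0.0234).

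The VEGF list of 10 gave 1 higher and 2 lower genes with *Vegfa* counted. *Pgf*, a second ligand of the family, fell by 1.02 (adjusted p = 0.0404) and *Nrp2*, a co-receptor that macrophages also carry, rose by 1.02 (adjusted p = 0.0383). For *Lama4* fl/fl mice *Vegfb* (0.27, adjusted p = 0.779) and *Nrp2* (0.21, adjusted p = 0.882) had the lowest p of the list. Of 8 mitophagy receptors, *Bnip3l*, the nearest relative of *Bnip3*, rose by 0.31 (adjusted p = 0.0416), opposite in sign to the *Bnip3* value, and *Bcl2l13* fell by 0.70 (adjusted p = 0.0395). In the 19 libraries 3 of 12 HIF factors and oxygen sensors rose and 3 fell in *Lama4* AKO mice. Of 27 other HIF target genes 8 rose and 3 fell. The VEGF list of 10 gave 1 higher and 5 lower, and the 8 mitophagy receptors 1 higher and 2 lower. Of all 14863 genes 2810 rose and 3175 fell there (edgeR).

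The study's criteria called 2 of the 89 pathway genes in *Lama4* AKO mice (2.25%, against 4.12% of all genes), a lactate and a glucose transporter. *Slc16a1*, the transporter MCT1 that carries lactate and pyruvate, had 31.1, 81.8 and 114 CPM in chow-fed and 21.4, 25.9 and 36.5 CPM in HFD-fed *Lama4* AKO libraries. It fell by 1.46 (log2, SE 0.315, adjusted p = 0.0126, edgeR) in *Lama4* AKO mice, with −0.32 (adjusted p = 0.771) in *Lama4* fl/fl mice. In the 19 libraries the values were −1.62 and −1.20, and *Slc16a1* was called in both genotypes (adjusted p = 0.00397 in *Lama4* fl/fl). *Slc2a12*, a second insulin-responsive glucose transporter, fell by 2.42 (SE 0.641, adjusted p = 0.0207) from a median of 2.83 CPM to 0.497 CPM. *Slc2a4*, which encodes the insulin-responsive GLUT4, fell by 1.10 (SE 0.399, adjusted p = 0.0496) in *Lama4* AKO mice, with medians of 45.0 CPM on chow and 23.2 CPM on HFD, whereas *Slc2a1* rose. *Slc16a7*, a relative of MCT1, was at −0.58 (adjusted p = 0.0715).

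With all 24 mice, the diet comparison in *Lama4* fl/fl left all 89 pathway genes short of an adjusted p of 0.05 in edgeR. At an unadjusted p under 0.05 there were 7, and 1354 of all 15020 genes. The lowest p of the oxygen sensing list were those of *Arnt2* (0.78, adjusted p = 0.564) and *Hif1an* (0.18, adjusted p = 0.696), and of the target list *P4ha1* (0.31, adjusted p = 0.533) and *Hmox1* (1.08, adjusted p = 0.639). *Pdk2* (−0.47, adjusted p = 0.588) and *Mpc1* (0.54, adjusted p = 0.65) led pyruvate handling, and *Slc2a8* (0.28, adjusted p = 0.533) and *Slc2a10* (0.37, adjusted p = 0.807) led the glucose transporters. The mitophagy receptor *Fundc1* (−0.44, adjusted p = 0.444) and its partner in the list *Fkbp8* (0.34, adjusted p = 0.498) completed these pairs. In the 19 libraries 11 of the 89 rose and 11 fell in *Lama4* fl/fl mice (24.7%, against 29% of all genes), and 11 were called (12.4%, against 11.8%). Among those called were *Hmox1* (2.34, adjusted p = 0.00604), *Fundc1* (−0.61, adjusted p = 0.00751) and *Fkbp8* (0.66, adjusted p = 0.00184), while *Arnt2* rose (1.53, adjusted p = 0.00511) without being called.

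Within pairs of related enzymes, shares are free of library scaling. GLUT1 transcripts made up 24.8% ± 19.6 (SD, n = 6) of *Slc2a1* plus *Slc2a4* in chow-fed and 59.8% ± 14.7 in HFD-fed *Lama4* AKO mice, a difference of 35.0 percentage points (two-sided exact permutation p = 0.0108, adjusted p = 0.0649 over 12 tests). The share in *Lama4* fl/fl mice was 32.4% ± 18.6 on chow and 33.0% ± 20.0 on HFD (exact permutation p = 0.961). *Pdk1* made up 24.3% ± 6.84 of the 4 *Pdk* kinases in chow-fed and 37.3% ± 3.26 in HFD-fed *Lama4* AKO mice (exact permutation p = 0.00433, adjusted p = 0.0519), where the smallest possible p was 0.00216. *Pdk2*, *Pdk3* and *Pdk4* differed by −0.38, −0.04 and −0.25 between these diets (adjusted p = 0.252, 0.849 and 0.793, edgeR). *Ldha* made up 94.5% ± 2.0 of *Ldha* plus *Ldhb* on chow and 96.7% ± 0.806 on HFD in *Lama4* AKO mice (exact permutation p = 0.0281, adjusted p = 0.0844), and *Ldhb* fell by 0.95 (adjusted p = 0.0453, edgeR). No share passed an adjusted p of 0.05 in any of the 4 comparisons.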

How the data were processed

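RNA of eWAT from 24 mice was sequenced as 50-base forward QuantSeq reads. The authors aligned and counted these with the Lexogen pipeline and deposited, for each gene, its raw counts in the 24 libraries, not normalized. The submitters' processing notes name GRCm38, R 4.0.3 and DESeq2 1.30. A second deposited table holds the same data as a normalized signal, the counts divided by 1 size factor per library, and was used for symbols and coordinates. Columns of both tables were matched to samples by their titles.

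Counts were tested in R 4.3.3 with edgeR 4.0.16 (TMM, 15020 genes that reached 1 CPM in 3 or more libraries, quasi-likelihood fit with 1 coefficient per group), and p-values were adjusted by Benjamini and Hochberg over all genes tested. Standard errors are the absolute log2 fold change over the root of F. Each library is 1 mouse, and neither litters nor ages were modelled. Alternatives were DESeq2 1.42.0, limma-voom (limma 3.58.1) with and without quality weights, RLE factors, other filters, the groups compared alone, other criteria, the 19 libraries and each mouse left out. Counts of genes at an adjusted p alone, and leaving out each of the 19, were added after seeing the data. The 8 genes and all lists were chosen with earlier results of these data known. Genes named beside the 8 are those called in any comparison, the 2 of lowest p per list in each diet comparison, fixed partners, and the 3 most alike per member. *Hk1*, *Pkm*, *Cd68* and *Itgax* were named after their values were seen. Replicate numbers were not taken to pair the mice. Over 36 pairs of same-numbered libraries, deviations correlated from −0.534 to 0.714, with 15 pairs over 0.1. Libraries with different numbers were not compared, so this check cannot settle whether the numbers pair mice. In 60 pairs within groups no library was a duplicate (chi-square per degree of freedom at least 5.72). The scripts were tested on simulated data. Permutation tests used scipy 1.17.1.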

Additional observations from a re-analysis of the deposited data

Results flagged for a closer look

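Of 44 groups of 6 libraries (8 genes and 3 shares in 4 groups), 5 held a mouse far from the rest by Dixon's criterion (a gap to the nearest library above 0.625 of the group's range). Chance flags about 1 in 20 groups (5%). In chow-fed *Lama4* fl/fl replicate 1, *Vegfa* was 93.6 CPM with the next library at 44.9 CPM, *Bnip3* was 455 CPM with the next at 227 CPM, and *Pdk1* made up 16.4% of the *Pdk* kinases with the next at 31.7%. The same library held the highest adipocyte sum (45700 CPM) and the lowest macrophage sum (1360 CPM) of the 24. In chow-fed *Lama4* fl/fl replicate 3, *Ldha* was 384 CPM with the next at 323 CPM. In HFD-fed *Lama4* AKO replicate 2, *Ldha* was 416 CPM with the next at 341 CPM. For none of the 8 genes did the diet effect differ between genotypes past an adjusted p of 0.05 (edgeR).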

How the results depend on the processing

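In the *Lama4* AKO diet comparison the study's criteria called 0 of 8 genes with RLE factors, either other filter or the replicate block, 1 with only the groups compared, 2 with limma-voom, 3 with DESeq2 or with adjusted p in place of nominal p, and 4 with quality weights or the 19 libraries. Leaving out 1 mouse gave 0 to 4. Quality weights also called 1 gene for genotype on chow, 3 in the interaction and 1 with both genotypes averaged. In the interaction DESeq2 and limma-voom called 1, and leaving out 1 mouse gave 0 to 1. Over both genotypes DESeq2 and the adjusted criterion called 1, the 19 libraries 3, and leaving out 1 mouse 0 to 1. The fl/fl diet comparison and genotype on HFD stayed at 0 of 8 under every setting on 24 libraries, on the 19, and without any 1 of the 24 mice. Leaving out 1 of the 19 gave 0 to 1 in these 2, for genotype on chow and in the interaction. At an adjusted p of 0.05, the count of 4 in *Lama4* AKO stayed within 1.5 times under every other setting, and leaving out 1 mouse gave 0 to 5. The count of 1 over both genotypes became 2 with DESeq2, 4 with quality weights, 5 with the 19 libraries in edgeR or limma-voom, and 0 to 3 without 1 mouse. Replicate numbers were not taken to pair the mice. With the replicate block the count over both genotypes became 0, the *Lama4* AKO count remained 4, and genes called there went from 619 to 457. For most of these settings the share of all genes called is not given here. A higher count of the 8 therefore cannot be told apart from a setting that called more genes. The cause of these shifts was not tested.

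Of 1211 values of single genes and shares under other settings, 1136 kept their direction and side of the threshold and 34 changed direction, none of these past the threshold in all 24 libraries. In the diet comparison of *Lama4* fl/fl mice, leaving out 1 mouse moved *Hif1a* (log2) from −0.04 to 0.12, *Vegfa* from −0.35 to 0.31, *Pgk1* from −0.31 to 0.03 and *Egln3* from −0.21 to 0.03. *Hif1a* was −0.02 in the 19 libraries, *Vegfa* 0.26 with quality weights and 0.01 with only the groups compared, and *Egln3* 0.01 with quality weights. *Egln3* ranged from −0.26 to 0.01 between diets in *Lama4* AKO and from −0.21 to 0.02 between genotypes on chow. For genotype on chow, *Bnip3* ranged from −0.32 to 0.14 and was 0.13 with quality weights. For genotype on HFD, the 19 libraries gave *Vegfa* 0.14, *Bnip3* 0.27 and *Egln3* 0.08. In percentage points, the *Ldha* share differed by −0.174 to 0.544 (genotype, HFD; −0.429 in the 19 libraries) and −1.22 to 0.14 (genotype, chow). The *Slc2a1* share differed by −4.65 to 5.6 and the *Pdk1* share by −5.10 to 0.0928 (diet, *Lama4* fl/fl; the latter 4.16 in the 19 libraries). *Pgk1* and *Egln3* have the fewest counts of the 8, with 10 to 89 a library.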
